A study of Mus musculus with 4 samples.

Results

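Imprinted genes are described here in female and male germ cells of mouse embryos in which the Max gene could be deleted. The members are 41 named imprinted genes, chosen as a list of genes known for parent-of-origin expression, with the Dlk1-Dio3 locus left out. Of the 41, 38 were measured by a transcript cluster of their own among 30738 genes on the array. H19 and Snrpn each share a cluster with another gene (Mir675 and Snurf), so their values are given as those of the shared cluster and enter no count, and no cluster was named for Zrsr1. Nespas was measured under its current symbol, Gnasas1. All 4 groups came from Max fl/fl C57/BL6 embryos, and every group, the controls included, had received tamoxifen before sampling. FC and MC are female and male germ cells that also carried the Oct4-CreERT2 transgene (Oct4dPE-CreERT2), in which the distal enhancer of Oct4 drives a tamoxifen-inducible Cre in germ cells, and F and M are female and male germ cells without it. Tamoxifen was given at E8.5 and gonads were taken at E12.5, freed of mesonephros and sorted for germ cells with magnetic beads against SSEA-1. There was 1 array for each group, and the number of embryos behind each is not given in the sources used here, so no difference between 2 arrays has a replicate check.

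Genomic imprinting restricts expression of a gene to the allele from the mother or from the father. The choice is carried by DNA methylation at imprinting control regions, which is laid down in the germ line of each parent, and in primordial germ cells these marks are erased as the cells enter and settle in the gonad, before new marks are set according to the sex of the embryo. Many imprinted genes act on fetal and placental growth. MAX is the DNA-binding partner of MYC and also of MGA in a polycomb complex, PRC1.6, and it binds the E-box CACGTG. The array reads total RNA and does not separate the parental alleles.

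The promoters of 4 members are shown because the results turn on these genes: Phlda2 on the difference between FC and F, Mcts2 on the difference with CreERT2 in both sexes, and Grb10 and Zim1 on the difference between the sexes. Each line holds the 250 bases before the transcription start in RefSeq GRCm38.p6, 5′ to 3′ on the strand of the gene, with CG dinucleotides in capitals. Phlda2 lies at chr7:143502525-143502774 (minus strand), Mcts2 at chr2:152686898-152687147 (plus strand), Grb10 at chr11:12037421-12037670 (minus strand, the window with the more CG of 2) and Zim1 at chr7:6696433-6696682 (minus strand).
Phlda2: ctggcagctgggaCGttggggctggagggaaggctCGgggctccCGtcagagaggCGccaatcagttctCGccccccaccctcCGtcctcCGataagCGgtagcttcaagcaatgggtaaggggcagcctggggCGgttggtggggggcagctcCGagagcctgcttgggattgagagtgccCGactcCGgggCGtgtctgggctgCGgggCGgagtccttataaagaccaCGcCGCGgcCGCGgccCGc
Mcts2: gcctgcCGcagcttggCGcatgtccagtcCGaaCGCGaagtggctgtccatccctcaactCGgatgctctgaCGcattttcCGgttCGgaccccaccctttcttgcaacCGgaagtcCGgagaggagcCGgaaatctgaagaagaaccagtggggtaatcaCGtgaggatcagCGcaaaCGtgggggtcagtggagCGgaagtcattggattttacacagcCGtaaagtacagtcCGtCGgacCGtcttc
Grb10: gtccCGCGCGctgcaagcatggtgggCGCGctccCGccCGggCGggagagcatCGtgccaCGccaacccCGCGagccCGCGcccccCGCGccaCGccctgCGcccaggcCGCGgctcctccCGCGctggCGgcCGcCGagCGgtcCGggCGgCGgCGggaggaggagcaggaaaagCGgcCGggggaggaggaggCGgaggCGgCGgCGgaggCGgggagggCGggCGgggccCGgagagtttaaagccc
Zim1: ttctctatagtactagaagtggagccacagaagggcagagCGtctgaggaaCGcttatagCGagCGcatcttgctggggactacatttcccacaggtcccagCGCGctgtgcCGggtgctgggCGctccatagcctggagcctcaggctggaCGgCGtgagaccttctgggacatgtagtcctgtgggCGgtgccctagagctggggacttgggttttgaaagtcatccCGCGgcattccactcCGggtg
These 250 bases hold 21 CG in Phlda2, 20 in Mcts2, 40 in Grb10 and 14 in Zim1. Only the Mcts2 sequence of the 4 holds CACGTG, written caCGtg in its line, at -91 from the start. Over the full windows, which run 50 bases past the start, 34 of the 41 members had 51 windows in the RefSeq promoter table. CACGTG, which reads the same on both strands, was in 4 of the 51 windows (7.84%), 1 each of Mcts2, Igf2r, Plagl1 and Osbpl5, and in 7.15% of all 32851 windows. CACGCG, searched on both strands, was in 5 of the 51 windows (9.8%) and in 9.27% of all windows, and the E2F-like GCGGGAA was in 2 of the 51 (3.92%) and in 4.6% of all windows. The median number of CG was 16 in the windows of members and 7 in all windows. These matches describe letters in a window, and binding was not measured.

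The labels were checked against Max, sex-linked genes and cell type markers. Max was at a log2 signal of 10.31 in FC and 10.75 in F, and at 10.33 in MC and 10.64 in M, from 1 cluster whose probes were not examined by exon. The paper reports, from immunostaining on an earlier embryonic day, that MAX protein fell to background in most germ cells carrying Cre. All 4 Y-linked genes measured were lowest in FC and intermediate in F. Of these, Uba1y was at 13.26 in MC, 12.82 in M, 5.52 in FC and 9.69 in F. Xist, the RNA of the inactive X chromosome, was at 4.60 in MC, 4.55 in M, 10.81 in FC and 7.80 in F. The F array therefore goes in part against its label, and the counts taken against F are given again below with another array in its place. Germ cell markers had mean log2 signals of 10.57 in MC, 10.42 in M, 11.05 in FC and 10.91 in F over 10 genes. The 10 pregranulosa markers averaged 4.87 in MC, 4.70 in M, 4.998 in FC and 4.85 in F, and 6 of them were at or above the median mean signal of all genes. Of these 10, Foxl2 stayed between 2.98 and 3.04, near the lowest deposited value of 2.29, and Fst was at 5.94 in MC, 5.46 in M, 6.36 in FC and 6.12 in F. Markers of other cell types were not level across arrays. The 8 interstitial markers measured averaged 7.53 in MC, 7.21 in M, 6.34 in FC and 6.72 in F, the 11 endothelial markers 7.20 in MC, 7.38 in M, 6.14 in FC and 6.97 in F, and the 5 platelet markers 4.99 in MC, 7.19 in M, 4.73 in FC and 4.90 in F.

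**Figure D1:**
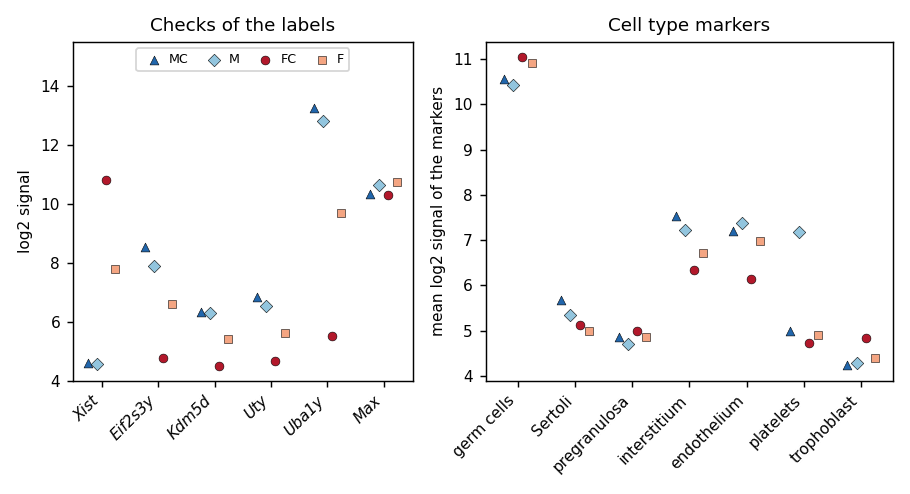
Log2 signal of Xist, 4 Y-linked genes and Max (left) and mean log2 signal of lists of cell type markers (right), 1 point for each of the arrays MC, M, FC and F. Uba1y was at 9.69 in F, between 5.52 in FC and 12.82 in M, and the interstitial mean was highest in MC at 7.53 and lowest in FC at 6.34.

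The first question is what CreERT2 in a Max-floxed background did to imprinted genes in female germ cells. Phlda2, a maternally expressed gene whose protein has a pleckstrin homology domain and which restrains growth of the placenta, had a log2 signal of 14.65 in FC and 10.19 in F. Its difference of 4.46, or 22.0-fold, was the highest of all 30738 genes in this comparison, and among the 1064 genes of like mean signal the median difference was -0.14 with an SD of 0.40. The other 37 members lay between -0.85 and 0.57. Of the 38 members, 1 was at least 2-fold higher in FC, against 0.547% of all genes, and 0 were at least 2-fold lower, against 0.508% of all genes. Among the 15374 genes at or above the median mean signal, where 33 of the 38 members lie, these shares were 0.995% higher and 0.989% lower. At 1.5-fold, 1 member was higher and 1, Peg10, was lower (all genes 1.99% and 2.81%). The median over members was -0.055 and over all genes -0.01. It was -0.05 over the 2449 genes whose mean signal lay within 0.5 of the members' median mean signal. Of the members, 15 were above 0 and 22 below. Above and below 0 were 14610 and 15405 of all genes, and 6357 and 8785 of the 15374 brighter genes. Within 0.25 of no difference lay 30 members (78.9%), 74.6% of all genes and 62.1% of the brighter genes.

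Phlda2 lay lower on both male arrays. Its signal was 6.66 in MC and 7.43 in M, a difference of -0.77, and FC stood far above the other 3 arrays. Under quantile normalization, median centring and cyclic loess its difference stayed between 4.43 and 4.61 for FC minus F and between -0.82 and -0.61 for MC minus M. With M in place of F, so that sex differs too, the difference of Phlda2 was 7.22, 1 member was at least 2-fold higher in FC and 4 were at least 2-fold lower, namely Grb10, Zim1, Peg10 and Kcnq1ot1, and the median was -0.16. The shares and median over all genes were not computed for FC against M, so these counts have no background beside them. Xist had an order like that of Phlda2, highest in FC and intermediate in F. Of 8 listed trophoblast markers 5 were measured, among them Cdx2 and Elf5. They averaged 4.83 in FC and 4.39 in F, and 4.24 in MC and 4.28 in M. Of these 5, 4 were above 0 in FC minus F, none by 2-fold, with a median of 0.53. The widest of the 5 was Tfap2c, at 0.80, which is also on the list of germ cell markers. The trophoblast gene Hand1 was at 3.43 in FC and 3.50 in F, and Tpbpa was at 3.85 in FC and 3.61 in F. Of 10 markers of coelomic epithelium and mesonephros, 7 were above 0 and 3 below in FC minus F, with a median of 0.29. The 2 at least 2-fold higher were the keratin genes Krt8 and Krt18, by 1.33 and 1.48, while Lhx1 was at -0.58 and Upk3b at -0.33. The part of these in the value of Phlda2 was not tested. As the arrays hold RNA from bulk samples, fewer cells of a type and less RNA in each cell cannot be told apart.

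**Figure D2:**
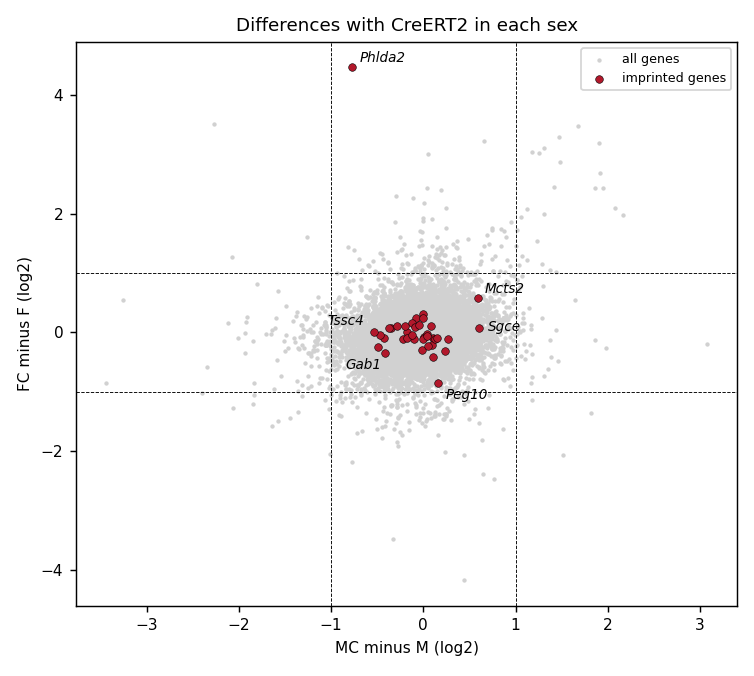
Log2 difference FC minus F (vertical axis) against MC minus M (horizontal axis) for all genes (grey) and the 38 imprinted genes (red), with dashed lines at 2-fold. Phlda2 lies alone at 4.46 and -0.77, and the other 37 imprinted genes stay inside the lines in both sexes.

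Phlda2 sits in a domain of distal chromosome 7 with Cdkn1c, Slc22a18, Ascl2 and the noncoding RNA Kcnq1ot1, whose promoter overlaps the control region that silences the neighbouring genes on the paternal chromosome. None of them differed between FC and F by more than 0.24. Cdkn1c, an inhibitor of cyclin-dependent kinases, was at 7.90 in FC and 7.99 in F, and at 8.14 in MC and 8.03 in M. Slc22a18, a membrane transporter and the gene next to Phlda2, was at 5.38 in FC and 5.14 in F, and at 4.71 in MC and 4.79 in M. Its 4 values had the same order as those of Phlda2, over a range of 0.67 where that of Phlda2 was 7.99. On the other side of Phlda2, Nap1l4, a histone chaperone gene, was at 12.56 in FC and 12.49 in F, and at 12.19 in MC and 12.56 in M. Osbpl5, which encodes an oxysterol-binding protein relative, was at 4.47 in FC and 4.35 in F. Kcnq1ot1 itself was at 5.07 in FC and 4.99 in F, and at 5.76 in MC and 6.11 in M. Ascl2, a transcription factor of trophoblast progenitors, was dim on all 4 arrays, at 3.88 in FC, 3.96 in F, 3.66 in MC and 3.65 in M. Over the 11 measured members of distal chromosome 7 the median of FC minus F was 0.00, with 5 above 0 and 5 below.

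**Figure D3:**
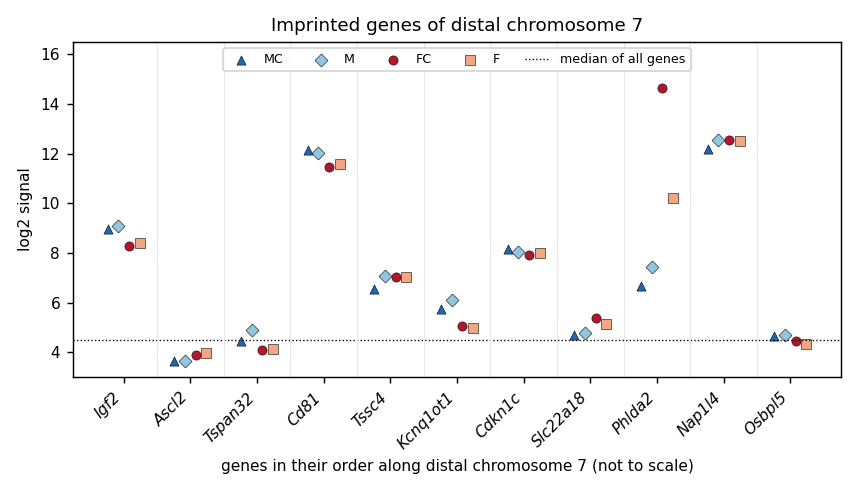
Log2 signal on each of the arrays MC, M, FC and F for the 11 imprinted genes of distal chromosome 7 measured by a cluster of their own, in their order along the chromosome, with the median over all genes dotted. Phlda2 spans 6.66 to 14.65 while its neighbours Slc22a18 and Nap1l4 span 0.67 or less, and signals are read within a gene and not between genes.

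At the other end of that domain lie Igf2, a paternally expressed fetal growth factor, and H19, a maternally expressed noncoding RNA under the same control region. Igf2 was at 8.29 in FC and 8.41 in F, and at 8.97 in MC and 9.07 in M. The cluster shared by H19 and Mir675 was at 14.19 in FC and 14.23 in F, and at 14.57 in MC and 14.64 in M. Neither differed with CreERT2 by more than 0.12 in either sex, and both were higher on the 2 male arrays than on the 2 female arrays. Cd81, a tetraspanin, was at 12.16 in MC and 12.03 in M, and at 11.46 in FC and 11.58 in F. Its relative Tspan32 was at 4.44 in MC and 4.91 in M, and at 4.08 in FC and 4.13 in F. Tssc4 was at 6.54 in MC and near 7 on the other arrays, with 7.07 in M, 7.02 in FC and 7.02 in F.

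The second question is the same comparison in male germ cells. No imprinted gene was at least 2-fold higher in MC (0 of 38, against 0.224% of all genes) or at least 2-fold lower (0 of 38, against 0.475% of all genes), and the shares among genes at or above the median mean signal were 0.397% and 0.82%. At 1.5-fold, 2 members were higher, Sgce and Mcts2, and 1 was lower, Phlda2 (all genes 1.56% and 2.68%). The median over members was -0.03 and over all genes 0.01, with 15 members above 0 and 20 below. Above and below 0 were 15551 and 14543 of all genes, and 5761 and 9365 of genes at or above the median mean signal. The 2449 genes whose mean signal lay within 0.5 of the members' median mean signal had a median of -0.08. The widest differences were those of Phlda2, of Sgce, the epsilon-sarcoglycan gene, and of Mcts2, a retrogene of the translation factor gene Mcts1. Sgce was at 6.36 in MC and 5.76 in M, and at 5.98 in FC and 5.90 in F. Its partner Peg10, a retrotransposon-derived gene needed for the placenta, was at 11.68 in MC and 11.52 in M, and at 10.08 in FC and 10.93 in F. Sgce thus stood out in MC. Peg10 was lowest in FC and intermediate in F, as were the Y-linked genes measured. Sgce and Peg10 share a promoter region.

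The differences with CreERT2 were then set side by side for both sexes. Of the 38 members, 22 lay on opposite sides of 0 in FC minus F and MC minus M, 3 were above 0 in both, 9 were below 0 in both and 4 were at 0 in one of them. Of all genes, 42.2% lay on opposite sides, 26.8% were above 0 in both and 26.6% below 0 in both. These counts moved with the scaling: under quantile normalization, median centring and cyclic loess, 19 to 23 members lay on opposite sides, 3 to 8 were above 0 in both and 7 to 15 below 0 in both, the 15 with median centring. Mcts2 was the 1 member that was higher by 0.5 or more in both sexes, as were 122 of all genes (0.397%). Its signal was 7.29 in FC and 6.72 in F, and 7.09 in MC and 6.50 in M. The CreERT2 arrays were therefore both above both controls, with differences of 0.57 and 0.59. Its parent gene Mcts1, on the X chromosome and near-identical in sequence, was at 6.46 in FC and 6.53 in F, and at 6.81 in MC and 6.34 in M, so cross-hybridization between the copies was not tested. Of the other imprinted genes below, the zinc finger gene Zim2 came closest to the pattern of Mcts2, at 4.19 in FC and 3.69 in F, and at 4.07 in MC and 3.58 in M.

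A limma fit with CreERT2 and sex as terms used all 4 arrays with 1 residual degree of freedom, and a response limited to 1 sex adds to its error. The SE from this fit draws in part on the variance of all genes. It is not an error between replicate arrays, since each group had 1 array. For CreERT2, 0 of the 38 members and 0 of 30738 genes (0.0%) passed an adjusted p of 0.05. At an unadjusted p under 0.05 there were 3 members (7.89%) and 2243 genes (7.3%), and among genes at or above the median mean signal 2 of 33 members and 8.02% of genes. The 3 members were Mcts2, with a log2 difference of 0.58 ± 0.08 (SE, limma adjusted p = 0.663), Gab1, an adaptor of receptor tyrosine kinases, with -0.38 ± 0.08 (SE, limma adjusted p = 0.663), and Nespas, a noncoding antisense RNA of the Gnas locus, with -0.37 ± 0.11 (SE, limma adjusted p = 0.663). Phlda2 had 1.85 ± 1.53 (SE, limma adjusted p = 0.763). Gab1 was at 6.55 in FC and 6.89 in F, and at 6.81 in MC and 7.22 in M. Nespas was at 4.70 in FC and 4.94 in F, and at 4.98 in MC and 5.47 in M. The strand read by the probes is not given in the sources used here, so the signals of Nespas, Airn and Kcnq1ot1 cannot be told apart by strand from those of the genes they overlap.

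The third question is the difference between the sexes. Without CreERT2, 3 of the 38 members were at least 2-fold higher in M than in F, against 0.729% of all genes, and 1 was at least 2-fold lower, against 0.605% of all genes. The 3 were Grb10, Zim1 and Kcnq1ot1, and the 1 was Phlda2, at 6.77-fold lower. With CreERT2, 3 members were at least 2-fold higher in MC than in FC, against 0.979% of all genes, and 1 was at least 2-fold lower, against 1.42% of all genes. These were Peg10, Grb10 and Zim1, and again Phlda2, whose difference of -7.99, or 254-fold, was the lowest of all genes. Among genes at or above the median mean signal the shares were 1.24% higher and 1.19% lower in M, and 1.79% higher and 2.74% lower in MC. Grb10 and Zim1 were on both lists, as were 76 of all genes (0.247%). The medians over members were 0.12 for M minus F and 0.19 for MC minus FC, beside -0.01 and 0.02 over all genes. With FC in place of F, so that CreERT2 differs too, 4 members were at least 2-fold higher and 1 lower in M, with a median of 0.16. For this pair of arrays the shares and median over all genes were not computed. M minus F shares the F array with FC minus F, and MC minus FC shares the FC array with it, so the values of Phlda2 in these comparisons are not separate measurements. At 1.5-fold, 8 members were higher and 2 lower in M than in F (all genes 3.12% and 3.46%), and 8 were higher and 2 lower in MC than in FC (all genes 3.82% and 5.24%).

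Grb10 encodes an adaptor that restrains signalling from the insulin and IGF receptors and is expressed from the maternal allele in most tissues and from the paternal allele in neurons. It was at 11.24 in MC and 11.15 in M, and at 9.76 in FC and 9.97 in F. The 2 male arrays lay above the 2 female arrays by 1.18 without and 1.48 with CreERT2. Ddc, which encodes the decarboxylase of dopamine and serotonin synthesis and adjoins Grb10, did not share this, at 5.24 in MC and 5.09 in M, and at 5.04 in FC and 5.13 in F. Zim1, a maternally expressed zinc finger gene, was at 7.57 in MC and 7.57 in M, and at 6.35 in FC and 6.46 in F. Its neighbour Peg3, a paternally expressed zinc finger gene that acts on growth and maternal behaviour, was at 11.39 in MC and 11.57 in M, and at 10.96 in FC and 10.95 in F. Usp29, a deubiquitinase-family gene that shares a promoter region with Peg3, was at 4.87 in MC and 4.60 in M, and at 4.40 in FC and 4.51 in F. Both parental classes of this domain were therefore higher on the 2 male arrays than on the 2 female arrays.

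Igf2r, the maternally expressed receptor that takes up and clears IGF2, did not separate the sexes, at 9.11 in MC and 9.23 in M, and at 9.13 in FC and 8.97 in F. Airn, the paternal noncoding RNA that runs antisense through Igf2r, did, at 5.25 in MC and 5.21 in M, and at 4.74 in FC and 4.76 in F. Mest, a paternally expressed hydrolase-family gene of mesoderm, was at 9.28 in MC and 9.17 in M, and at 8.48 in FC and 8.89 in F. Copg2, which encodes a coatomer subunit and overlaps Mest tail to tail, was at 8.89 in MC and 9.18 in M, and at 9.35 in FC and 9.25 in F, so the pair lay in opposite order. Plagl1, a zinc finger regulator of other growth genes, was at 8.93 in MC and 8.69 in M, and at 8.23 in FC and 8.55 in F. Both male arrays were above both female arrays for it, by 0.14 at the closest. Nnat, a small membrane protein gene in an intron of Blcap, was at 5.93 in MC and 6.13 in M, and at 5.62 in FC and 5.51 in F, while Blcap stayed between 6.15 and 6.36. Gnas, which encodes the stimulatory G protein alpha subunit, was at 7.30 in MC and 7.42 in M, and at 6.89 in FC and 6.93 in F. The polycomb-family gene Sfmbt2 went the other way, at 5.60 in MC and 5.55 in M, and at 5.94 in FC and 6.17 in F.

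**Figure D4:**
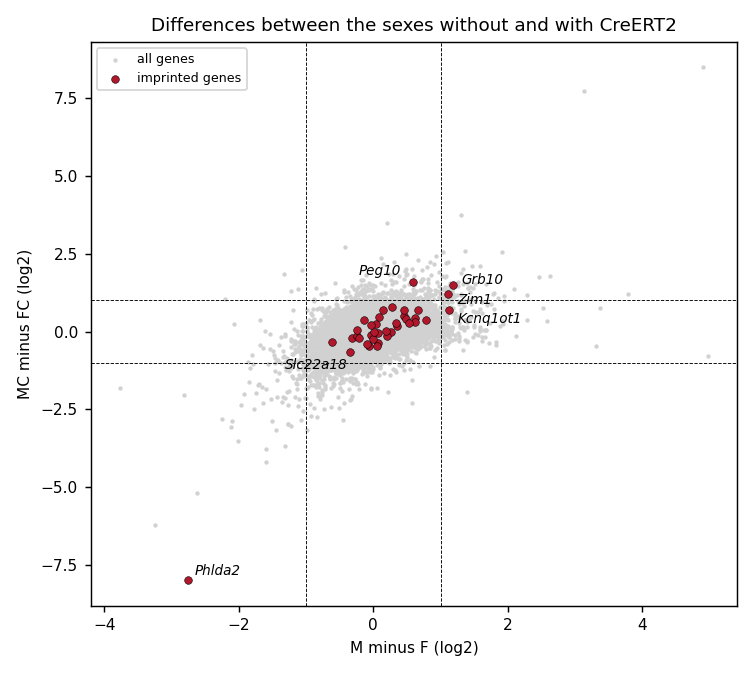
Log2 difference MC minus FC (vertical axis) against M minus F (horizontal axis) for all genes (grey) and the 38 imprinted genes (red), with dashed lines at 2-fold. Grb10 and Zim1 lie beyond the lines in both comparisons, Phlda2 at -2.76 and -7.99, and the 2 axes share no array.

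In the same limma fit, 0 of the 38 members and 0 of 30738 genes (0.0%) passed an adjusted p of 0.05 for sex. At an unadjusted p under 0.05 there were 16 members (42.1%) and 4109 genes (13.4%), and among genes at or above the median mean signal 15 of 33 members and 18.1% of genes. Of the 16 members, 13 were higher and 3 lower in male germ cells. Zim1 had 1.17 ± 0.09, Grb10 1.33 ± 0.12, Igf2 0.67 ± 0.08 and Kcnq1ot1 0.91 ± 0.15 (SE, limma adjusted p = 0.326 for each), and Peg10 had 1.10 ± 0.31 (SE, limma adjusted p = 0.358). The other 8 higher in male germ cells were Airn, Peg3, Gnas, Cd81, Tspan32, Nnat, Nespas and Gab1, and the 3 lower were Phlda2, at -5.38 ± 1.53 (SE, limma adjusted p = 0.363), Slc22a18 and Sfmbt2. Over the 3 other scalings, 15 to 19 members and 13.7% to 16.3% of genes had an unadjusted limma p under 0.05 for sex. There were 16 members with a variance trend (12.2% of genes) and 16 with no block (12.5% of genes). Interstitial markers differed between the sexes too. All 8 were above 0 in both comparisons, with medians of 0.43 for M minus F and 1.21 for MC minus FC, as were 9 of 11 endothelial markers for M minus F and 10 of 11 for MC minus FC. Sertoli markers were above 0 in 7 of 10 and 8 of 10. Platelet markers were above 0 in 5 of 5 for M minus F, with a median of 1.89, and in 4 of 5 for MC minus FC, with a median of 0.18. Leukocyte markers were above 0 in 3 of 9 and 8 of 9. Other lists went the other way: for M minus F, 10 of 10 germ cell, 5 of 5 steroidogenic and 7 of 7 erythroid markers were below 0. For MC minus FC these were 8 of 10, 3 of 5 and 5 of 7. Growth genes of the imprinted list such as Igf2, Grb10, Peg3 and Mest are known to be expressed in mesenchyme, and the part of the somatic signals in these values was not tested.

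**Figure D5:**
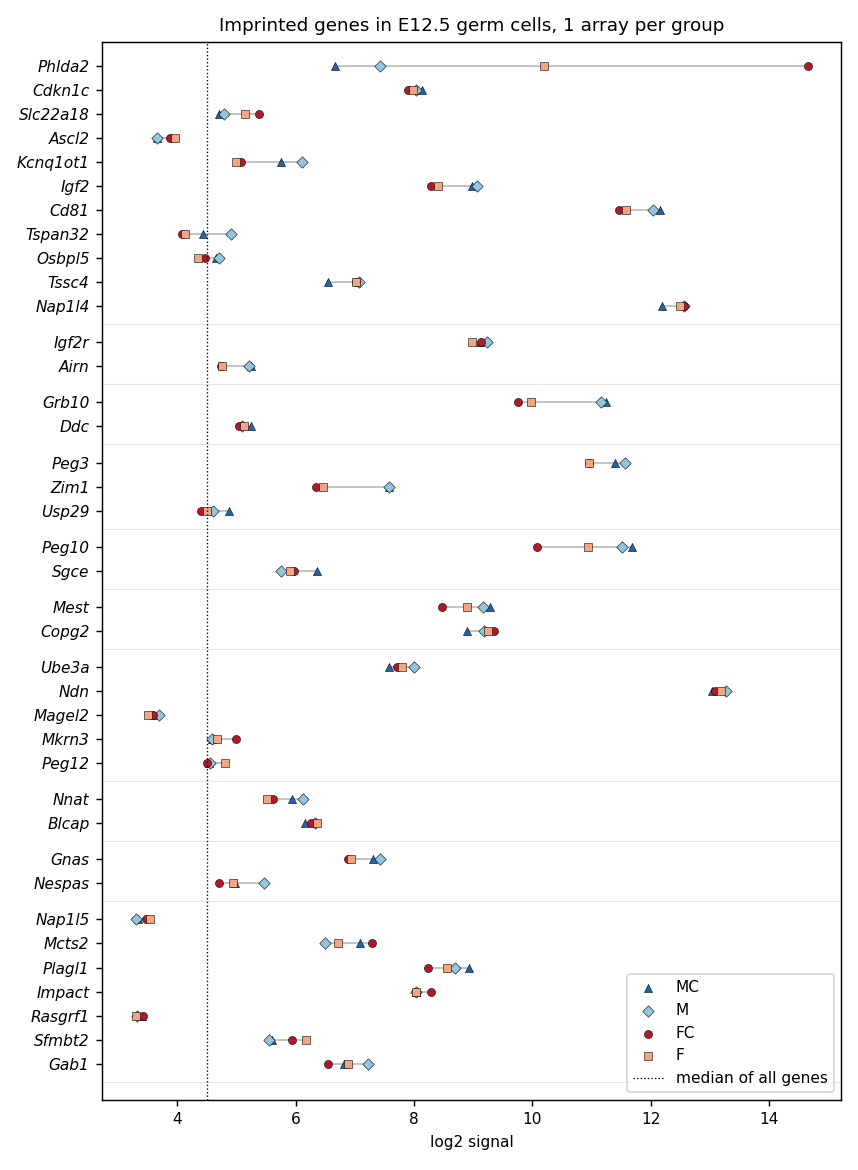
Log2 signal (horizontal axis) of each of the 38 imprinted genes on the arrays MC, M, FC and F, grouped by genomic domain, with a grey bar over the range of the 4 arrays and the median over all genes dotted at 4.50. Of the 38 genes, 17 span less than 0.5 and 5 span 1 or more, and Phlda2 spans 7.99. Ranges over all genes were not computed.

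In the Prader-Willi and Angelman region, Ndn, a paternally expressed MAGE-family growth suppressor of neurons, was bright and level at 13.04 in MC and 13.26 in M, and at 13.08 in FC and 13.19 in F. The cluster shared by Snrpn, a spliceosomal protein gene, and Snurf was at 10.36 in MC and 10.12 in M, and at 10.07 in FC and 10.66 in F, a difference of -0.59 in females. Ube3a, a ubiquitin ligase gene imprinted in neurons, was at 7.57 in MC and 8.00 in M, and at 7.71 in FC and 7.80 in F. The makorin gene Mkrn3 stayed between 4.58 and 4.99, Peg12 between 4.50 and 4.80 and Magel2, another MAGE-family gene, between 3.50 and 3.69. Impact, a regulator of translation under stress, was at 8.28 in FC and between 8.03 and 8.04 on the other 3 arrays. The histone chaperone relative Nap1l5 stayed between 3.30 and 3.54, and Rasgrf1, an exchange factor of RAS known for its role in the brain, between 3.31 and 3.42. Across parental classes, the 11 maternally expressed members had medians of 0.00 for FC minus F and -0.08 for MC minus M, and the 21 paternally expressed members had -0.06 and 0.00. For the sexes the medians were 0.07 for M minus F and -0.02 for MC minus FC in the maternal class, and 0.14 and 0.28 in the paternal class.

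Other imprinted genes, 49 measured of a list of 51, held 2 genes at least 2-fold higher in FC than in F and 0 lower (all genes 0.547% and 0.508%). In MC against M, 0 were at least 2-fold higher and 0 lower (all genes 0.224% and 0.475%). The 2 higher in FC were Xlr4b and Xlr4c, X-linked genes imprinted in mouse brain. Xlr4b was at 9.93 in FC and 8.84 in F, and at 7.98 in MC and 7.55 in M. Xlr4c was at 9.74 in FC and 8.52 in F, and at 7.59 in MC and 7.20 in M. They are near-identical copies, so their clusters are not independent. The list medians were -0.04 for FC minus F and 0.07 for MC minus M. Slc38a4, an amino acid transporter gene of placenta and liver, was at 12.07 in FC and 11.22 in F, and at 11.48 in MC and 11.28 in M. Between the sexes, 1 gene of the list was at least 2-fold higher and 4 at least 2-fold lower in M than in F (all genes 0.729% and 0.605%), with a median of -0.02. The 1 was Axl, a receptor tyrosine kinase gene, at 1.09, and the 4 were Xlr3b at -1.35, Xlr4c at -1.32, Xlr4b at -1.29 and Smoc1 at -1.02. For MC minus FC 3 were at least 2-fold higher, Axl at 1.06, Asb4 at 1.09 and Dcn at 1.09 (all genes 0.979%). At least 2-fold lower were 2, Xlr4c at -2.15 and Xlr4b at -1.95 (all genes 1.42%). The list median for MC minus FC was 0.03.

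Among 24 measured regulators of imprints of a list of 25, 1 was at least 2-fold lower in FC than in F and 0 were higher (all genes 0.508% and 0.547%). In MC against M, 0 were at least 2-fold higher and 0 lower (all genes 0.224% and 0.475%). The 1 lower in FC was Tet1, an enzyme that oxidizes methylcytosine and acts in imprint erasure, at 8.76 in FC and 9.78 in F, and at 9.77 in MC and 9.69 in M. FC stood apart from the other 3 arrays, which lay within 0.09 of each other. Its relative Tet2 was at 6.80 in FC and 6.12 in F, and at 6.29 in MC and 6.20 in M. Dnmt1, the maintenance methyltransferase, was at 11.54 in FC and 11.54 in F, and at 11.44 in MC and 11.53 in M, and Dnmt3l, a cofactor of new methylation in later germ cells, stayed between 3.14 and 3.30. The list median was -0.13 for FC minus F, with 4 above 0 and 19 below, and -0.09 for MC minus M. The 1585 genes whose mean signal lay within 0.5 of the list's median mean signal had a median of -0.12 in both of these comparisons.

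Of 16 measured genes of the IGF pathway and growth control of a list of 18, 1 was at least 2-fold higher in FC than in F and 0 were lower (all genes 0.547% and 0.508%). In MC against M, 0 were at least 2-fold higher and 0 lower (all genes 0.224% and 0.475%). The 1 higher in FC was Igfbp7, a secreted IGF-binding protein relative, at 11.11 in FC and 9.67 in F, and at 10.60 in MC and 10.24 in M. In the Phlda family, Phlda1 differed by 0.58 in FC minus F and by -0.52 in MC minus M, and Phlda3 by 0.03 and -0.17. Phlda1 was at 7.62 in FC and 7.04 in F, and at 6.99 in MC and 7.51 in M, and Phlda3 was at 7.01 in FC and 6.98 in F, and at 6.82 in MC and 6.99 in M. Cdkn1a, a kinase inhibitor gene in the family of Cdkn1c, was at 12.20 in FC and 11.32 in F, and at 11.10 in MC and 11.14 in M. The list medians were 0.07 for FC minus F and -0.05 for MC minus M.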

How the data were processed

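Germ cell RNA was labelled with biotin and hybridized to 4 DNA microarrays, 1 for each of MC, M, FC and F. The deposited values are log2 signals of 65956 transcript clusters to 2 decimals, from 2.29 to 19.85. Per the study's methods, signals were background-subtracted and normalized in R by robust multiarray analysis, while the labels name Transcriptome Analysis Console with no version. Methods and cluster identifiers differ on the array type, so neither the software nor the array is settled. The genome build is not given in the sources used here. The number of arrays limits the precision.

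Values were used as deposited. Gene names came from the platform's annotation, with 330 symbols updated through RefSeq GRCm38.p6: 31292 clusters had 1 gene, 1522 had several and 33142 were not in the table. Each of the 30738 genes was represented by its cluster of highest mean, and every measured member had only 1. All members were named and no filter on dim genes was set. The other imprinted genes, imprint regulators and IGF lists named theirs at 2-fold with CreERT2 and some further members as examples. Marker lists are given by means and counts with some markers as examples, and not all markers at 2-fold with CreERT2 were named. Among those not named above were the germ cell marker Ddx4, at 1.13 in FC minus F and 1.04 in MC minus M, and the platelet marker Pf4, at -3.44 in MC minus M. The members and lists were chosen with earlier results of these data known. Differences have no p. The common fit used limma 3.58.1 in R 4.3.3 with two-sided p-values adjusted by Benjamini-Hochberg across every gene. It was also run on simulated data with the same spread for every gene and no difference between the sexes, a simpler setting than these arrays. Alternatives were 3 other scalings, the mean of clusters, 1.5-fold and 3-fold, a filter at the median signal, another array in place of F, and for the fit a variance trend, no block and each array left out. The values without Phlda2 and the signs under each scaling were chosen after seeing the data. Python 3.11.15, numpy 2.4.6, pandas 2.3.3 and matplotlib 3.10.9 were used.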

Additional observations from a re-analysis of the deposited data

Results flagged for a closer look

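Phlda2 was the 1 member whose differences with CreERT2 were at least 1.5-fold in both sexes and in opposite directions. It was higher in FC than in F by 4.46 and at -0.77 in MC against M on the log2 scale, which leaves 5.23 between the sexes. This gap was not tested, since each sex has 1 array with and 1 without CreERT2. The F array also carried Y-linked signals.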

How the results depend on the processing

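Of the differences of single members under other scalings and the mean of clusters, 607 values stayed on their side of 2-fold and 1 went under it, Kcnq1ot1 in M minus F, at 0.96 with quantile normalization. With 1 cluster for every measured member, the mean of clusters returned the deposited value by construction. Only the 456 values under the 3 scalings could therefore move. Signs of small differences were less stable: 43 of 456 values under the 3 scalings changed sign, all of differences of at most 0.12 as deposited. At 1.5-fold the members higher or lower were 1 higher and 1 lower in FC against F, 2 higher and 1 lower in MC against M, 8 higher and 2 lower in M against F, and 8 higher and 2 lower in MC against FC. At 3-fold, 0 were higher in M than F and 1 in MC than FC, and the share over all genes was not computed at 3-fold. Without Phlda2, 0 were at least 2-fold higher in FC than F, and 0 were lower in M than F or in MC than FC. With M in place of F, 4 members were at least 2-fold lower in FC: Grb10, Zim1, Peg10 and Kcnq1ot1, for which sex then differs too. No share over all genes was computed for that pair. The median of MC minus FC was 0.0688 with quantile normalization and 0.08 with median centring, which moved the median of all genes by -0.075 and -0.11. The median of FC minus F was 0.02 with cyclic loess. In the common fit 0 of 38 members passed the adjusted threshold in every setting run (0 to 0 with an array left out, where the other factor had no term); with so few residual degrees of freedom this says nothing about stability. No paired analysis was possible because each group has 1 array and the labels give no replicate numbers. A second cluster of a gene could not be tried, since every measured member had 1. With 1 array per group, a difference of 2 arrays carries no estimate of error, and signals near the low end of the scale understate differences.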
